A study of Mus musculus with 3 samples.

Results

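The genes described here are the core of the Notch pathway: the 4 receptors Notch1, Notch2, Notch3 and Notch4, the 5 ligands Dll1, Dll3, Dll4, Jag1 and Jag2, and the effector Rbpj. They were taken by symbol, as every probe whose RefSeq accession belongs to one of these 10 genes, out of 20886 genes named on the array. That gave 14 probes in 23 spots, since the Dll1 probe is printed 10 times. Transcripts were measured on 1-colour oligonucleotide arrays in CD4+ T cells, 2 days after stimulation. One array was run for cells labelled Dll1-/- (ligand gene Dll1), one for cells labelled Rbpj-/- (effector gene Rbpj) and one for wild-type (WT) cells. The signals of Dll1 and Rbpj did not by themselves show the loss of either gene, as their values later in the text show. All 3 samples came from female C57BL/6 mice aged 8 weeks and had the same 2 days of stimulation. The labels name neither the stimulus, nor the cells in which each gene was deleted, nor the number of mice behind an RNA. Each group is 1 array, so no difference has been checked in replicates and nothing was tested.

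Notch receptors are transmembrane proteins that are cut when a Delta-like or Jagged ligand on a neighbouring cell binds them. The freed intracellular part enters the nucleus and joins the DNA-binding protein Rbpj, which represses its target genes without Notch and activates them with it. In the T lineage, Notch1 is known for commitment in the thymus, and Notch1 and Notch2 for the differentiation and survival of activated helper T cells. Ligands are usually supplied by antigen-presenting and stromal cells, and the series' title asks about Dll1 carried on the activated T cells themselves.

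A similar share of probes gave a usable signal on each array. Between 46.6% and 50.1% of 55678 probes were well above background, which is the scanner software's flag for a usable signal. The T cell receptor genes Cd3d, Cd3e and Cd3g and the co-receptor gene Cd4 were well above background on all 3 arrays. Of the 5 B cell markers, 5 were well above background in Dll1-/- cells, 4 in Rbpj-/- cells and 3 in WT cells. The B cell genes Cd79b and Ms4a1 were well above background on every array. Of 6 dendritic cell markers only Siglech was detected, with levels (log2 signal relative to the array's 75th percentile) of 9.22 in Dll1-/- cells, 9.26 in Rbpj-/- cells and 9.07 in WT cells. The summed scaled signal of that list, 597, 612 and 539 in the same order, is that of Siglech alone. Itgax, Flt3, Zbtb46, Xcr1 and Clec9a were not well above background. Whether the Siglech probe reads dendritic cells was not tested. In such bulk RNA, fewer cells of a type and less RNA per cell cannot be told apart.

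Rbpj and Dll4 carried the main differences, so their promoter windows are shown first. Both sequences are from RefSeq on build GRCm38.p6 and run from 250 bases before to 50 bases after an annotated start. Capitals mark the core of the Rbpj binding motif, TGGGAA, or its reverse complement TTCCCA.
Rbpj, chr5:53590096-53590395, plus strand: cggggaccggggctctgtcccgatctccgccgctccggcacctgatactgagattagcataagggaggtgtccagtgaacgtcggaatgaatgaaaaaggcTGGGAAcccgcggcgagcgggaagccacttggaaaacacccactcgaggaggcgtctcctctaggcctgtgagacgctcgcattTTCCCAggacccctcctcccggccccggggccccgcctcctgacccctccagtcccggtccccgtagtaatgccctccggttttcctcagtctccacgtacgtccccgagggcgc
Dll4, chr2:119325534-119325833, plus strand: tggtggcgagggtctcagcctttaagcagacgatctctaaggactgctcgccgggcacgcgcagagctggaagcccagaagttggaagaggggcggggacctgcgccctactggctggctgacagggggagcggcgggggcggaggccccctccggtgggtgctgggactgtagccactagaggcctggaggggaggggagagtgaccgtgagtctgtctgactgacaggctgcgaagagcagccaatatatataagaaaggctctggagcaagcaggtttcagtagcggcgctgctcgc
The Rbpj window holds 1 motif on each strand, with first bases at -149 and -65 from the start. A second, overlapping Rbpj window at a later annotated start holds the second of these. The Dll4 window and the windows of the other 8 genes hold no such letters, including both windows for Dll1. Of 32851 promoter windows of this length over all genes, 25.6% hold the motif, so the letters near Rbpj are a description of sequence, and their absence from the other windows says nothing of the factor.

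Of the 10 genes, 6 had a probe well above background on at least 1 array. Among the receptors these were Notch1 and Notch2, and among the ligands Dll3, Dll4 and Jag2, besides Rbpj. All of them but Dll3, 5 genes, were well above background on all 3 arrays. Notch3, Notch4, Dll1 and Jag1 did not reach that flag on any array. By gene, 60.4% of all named genes carried the flag in Dll1-/- cells, 58.0% in Rbpj-/- cells and 57.9% in WT cells, against 5, 5 and 6 of these 10 genes.

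**Figure D1:**
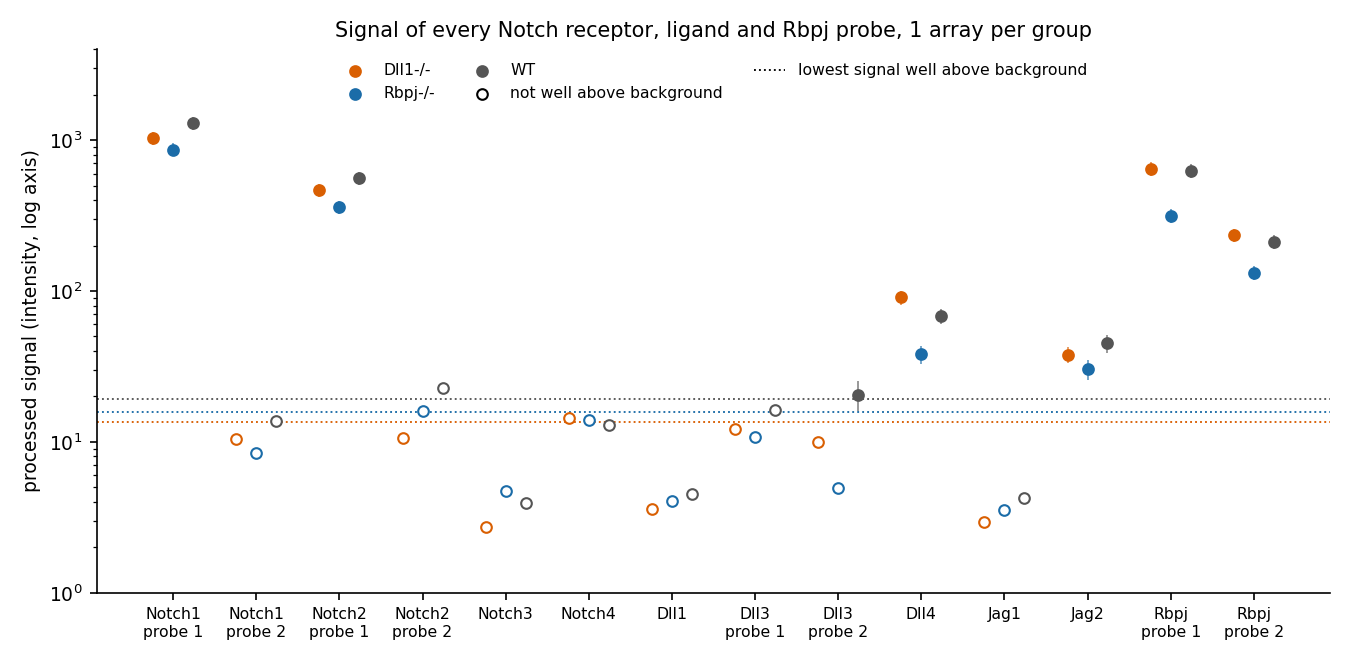
Processed signal (intensity, log axis) of each of the 14 probes on the Dll1-/-, Rbpj-/- and WT arrays; filled points are well above background, open points are not, bars are the scanner software's error of detected signals, and dotted lines mark the lowest signal well above background on each array. The first Notch1 and Notch2 probes, both Rbpj probes, Dll4 and Jag2 stand clear of the lines on every array. The second Notch1 and Notch2 probes are open on every array, and Dll1, Jag1 and Notch3 lie under 5 units.

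Dll1, the ligand named in the genotype of one sample, gave almost no signal anywhere. Its single probe read 3.60 units in Dll1-/- cells (mean over 9 spots, with 1 outlier spot left out), 4.06 in Rbpj-/- cells and 4.51 in WT cells (10 spots each). Single spots covered 2.72 to 5.63 units in Dll1-/- cells, 3.28 to 7.77 in Rbpj-/- cells and 3.82 to 5.17 in WT cells, so the arrays overlapped. The lowest signals marked well above background were 13.6, 15.8 and 19.2 units on the same arrays. The 308 negative control spots had medians of 2.88, 3.49 and 4.37 units and 95th percentiles of 3.53, 4.61 and 7.28 units. The Dll1 mean lay just above the negative control's 95th percentile in Dll1-/- cells and below it in Rbpj-/- and WT cells. Under the software's weaker flag, a signal positive and significant against background, 5 of 9 spots passed in Dll1-/- cells, 2 of 10 in Rbpj-/- cells and 0 of 10 in WT cells. Dll1 mRNA was thus not detectable at this brightness in the WT cells either, and the probe does not check the label of the Dll1-/- sample.

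The other ligand without a usable signal was Jag1, a Jagged ligand of stromal and endothelial cells, with 2.93 units in Dll1-/- cells, 3.55 in Rbpj-/- cells and 4.28 in WT cells. Jag1 failed both flags on all arrays. Notch3, a receptor of developing thymocytes and vascular smooth muscle, read 2.75, 4.72 and 3.95 units in that order, and passed the weaker flag in Rbpj-/- cells alone. Notch4, a receptor best known from endothelium, read 14.4 units in Dll1-/- cells, 13.9 in Rbpj-/- cells and 12.9 in WT cells. Its 3 readings lay above the negative control and passed the weaker flag on all arrays, but not the stricter one. The weaker flag was passed by 9 of the 10 genes on at least 1 array, Jag1 being the exception.

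Dll3, a divergent Delta-like ligand that acts within the cell during somite formation, was usable on the WT array alone. Probe A_51_P504494 read 10.1 ± 3.03 units in Dll1-/- cells and 4.93 ± 3.44 in Rbpj-/- cells, against 20.6 ± 4.59 in WT cells, where ± is the error that the scanner software gives for a spot. The WT reading was also set, after scaling, against the lowest signal well above background on each other array. It stood 1.32-fold above that of the Dll1-/- array and 1.03-fold above that of the Rbpj-/- array. A second probe for Dll3, A_55_P2045208, was not well above background, with 12.2 units in Dll1-/- cells, 10.7 in Rbpj-/- cells and 16.2 in WT cells. The WT reading of the first probe was just above the lowest flagged WT signal of 19.2 units. That signal is no strict limit, since the second Notch2 probe read 22.6 units in WT cells without the flag. The folds are thus near 1 and are not firm bounds.

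Each signal was then put on a log2 scale and set against the 75th percentile of its own array, and this value is called the level. Differences are between such levels. Where a gene has several usable probes their levels were averaged, and levels of different genes are not compared because probes differ in brightness. The error beside each difference is the software's error, which covers a spot. The SD between repeated spots of a probe within an array is a second measure. For probes of 100 to 1000 units the median spot SD was 0.06 log2 in Dll1-/- cells, 0.06 in Rbpj-/- cells and 0.07 in WT cells. At 30 to 100 units, where Dll4 and Jag2 lie, it was 0.15, 0.14 and 0.17 log2. Neither covers variation between mice or cultures. The 3 comparisons share their arrays pairwise, so the same WT reading enters both knockout differences.

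Rbpj, the DNA-binding effector and the gene named in the other knockout's genotype, was read by both of its probes. Probe A_66_P139267 had 647 ± 65 units in Dll1-/- cells, 316 ± 32 in Rbpj-/- cells and 627 ± 63 in WT cells. Probe A_55_P2022524 had 233 ± 24 units in Dll1-/- cells, 133 ± 14 in Rbpj-/- cells and 212 ± 22 in WT cells. Both probes were lowest in Rbpj-/- cells and well above background there. On the scaled levels the first probe was 0.66 ± 0.20 log2 below WT in Rbpj-/- cells and the second 0.35 ± 0.21 below (± software error). The mean over both put Rbpj at a level of 0.53 in Rbpj-/- cells and 1.04 in WT cells, a log2 difference of -0.50 ± 0.15, or 1.42-fold lower. That is more than the repeat-spot spread but short of 1.5-fold, and 9.20% of 11592 genes were as far or farther below WT on that array. Both probes thus still gave signal in the sample labelled Rbpj-/-. The labels do not say where the probes lie relative to the deleted sequence. The reference table lists the pseudogenes Rbpj-ps1, Rbpj-ps2 and Rbpj-ps3, whose share in the signal was not tested.

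In Dll1-/- cells Rbpj stood slightly above WT. Its level was 1.32 in Dll1-/- cells and 1.04 in WT cells, with single probes 0.24 ± 0.20 and 0.33 ± 0.21 log2 higher and a mean of 0.28 ± 0.15. A positive difference of this size or more was seen in 9.66% of genes. With scaling to E1A spike-in spots the mean was 0.08 log2, less than the software error of 0.15. Between the knockouts, Rbpj was 1.73-fold lower in Rbpj-/- than in Dll1-/- cells, with a log2 difference of -0.79 ± 0.15 and single probes at -0.90 and -0.68. Both probes had the same sign in each comparison, and they sit in rows 19 and 360 of the array.

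**Figure D2:**
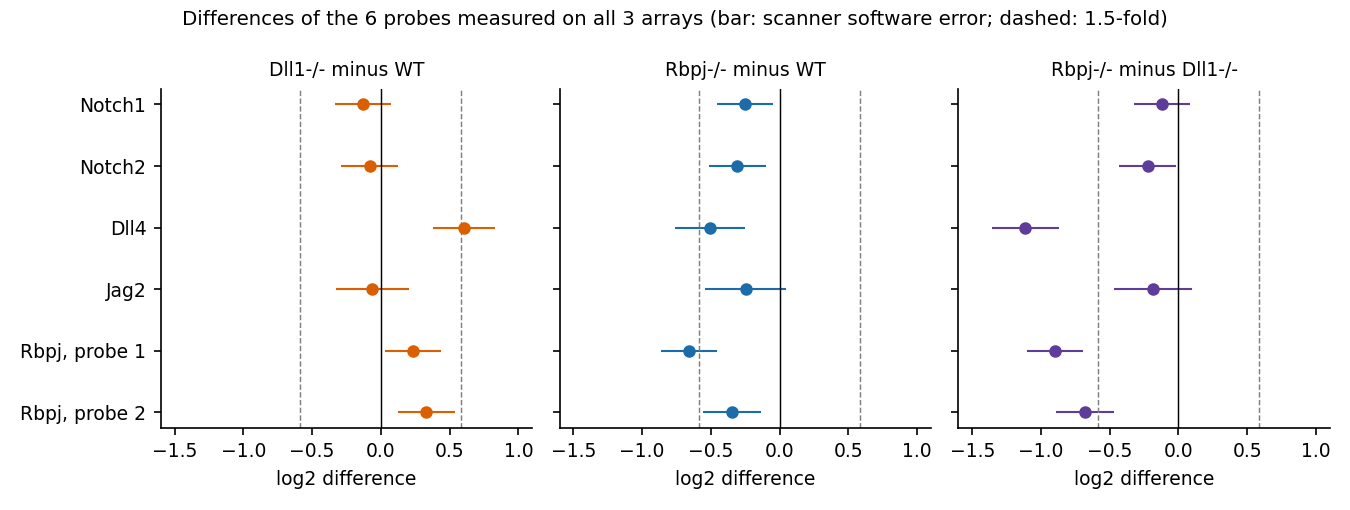
Log2 differences for the 6 probes that were well above background on all 3 arrays, with the scanner software's error of the difference as bars and 1.5-fold as dashed lines. Both Rbpj probes and Dll4 lie below 0 in Rbpj-/- minus WT and above 0 in Dll1-/- minus WT, and the Notch1, Notch2 and Jag2 probes lie below 0 in every panel.

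Dll4, a Delta-like ligand that drives T cell commitment in the thymus and is induced on antigen-presenting cells, differed more than Jag2, the other of the 5 Delta-like and Jagged ligands measured on all arrays. Its probe read 90.6 ± 9.5 units in Dll1-/- cells, 38.1 ± 5.1 in Rbpj-/- cells and 68.0 ± 8.0 in WT cells. The order was Dll1-/- above WT above Rbpj-/-, the same as for Rbpj. In levels, Dll4 stood at -0.78 in Dll1-/- cells, -1.89 in Rbpj-/- cells and -1.39 in WT cells. It was 1.52-fold higher in Dll1-/- than in WT cells (log2 difference 0.61 ± 0.23), and 1.42-fold lower in Rbpj-/- than in WT cells (-0.51 ± 0.26). Between the knockouts it was 2.16-fold lower in Rbpj-/- than in Dll1-/- cells (-1.11 ± 0.24).

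The Dll4 reading rests on 1 spot of a dim probe in row 25. Among genes with a mean level within 1 log2 of Dll4, 8.54% were at least 1.5-fold apart between Dll1-/- and WT cells, and 6.71% at least 2-fold apart between Rbpj-/- and Dll1-/- cells. The 1.5-fold difference for Dll4 in Dll1-/- cells was not reached after normexp background correction with quantile normalization, where it was 0.35, nor with E1A spike-in scaling, where it was 0.40, nor with median scaling, where it was 0.56. Under normexp with quantile normalization the difference in Rbpj-/- cells from WT was -0.20 and that between the knockouts -0.56. That correction adds an offset of 50 units to each signal, which by construction narrows the log2 differences of dim probes. Probes within 12 rows and 12 columns of the Dll4 spot had median differences of -0.0024 log2 in Dll1-/- minus WT and -0.016 in Rbpj-/- minus WT. A lncRNA gene that overlaps the Dll4 locus, Gm14207, gave 2.72 units in Dll1-/- cells, 3.18 in Rbpj-/- cells and 3.87 in WT cells, none of them well above background. Markers of other cell types differed between the same samples, in both directions. Tyrobp, which signals for receptors of NK and myeloid cells, stood at -0.74 in Dll1-/- cells, -2.08 in Rbpj-/- cells and -1.84 in WT cells. Klrb1c, an NK cell receptor, ran the other way between the knockouts, at 0.64 log2 in Rbpj-/- minus Dll1-/-, and was not well above background in WT cells. The NK list had 2 of 3 markers well above background in Dll1-/- cells, 2 in Rbpj-/- cells and 1 in WT cells, with summed scaled signals of 0.72, 0.42 and 0.33, and Ncr1 was not well above background. For the B cell list the sums were 20.7 in Dll1-/- cells, 14.2 in Rbpj-/- cells and 20.8 in WT cells. The macrophage sums were 5.59, 6.72 and 6.14 and the endothelial and stromal sums 12.1, 14.8 and 13.2 in that order. Most of each sum came from 1 gene, Itgam and Kdr respectively. The CD8 T cell genes Cd8a and Cd8b1 were well above background on every array, with sums of 1.21, 0.80 and 1.23. Cd8a ran in the order of Dll4, with levels of -1.33 in Dll1-/- cells, -2.35 in Rbpj-/- cells and -1.59 in WT cells. Cd8b1 was highest in WT cells, at -0.30, -0.73 and -0.16. The part of these cells in the Dll4 differences was not tested.

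Jag2, a Jagged ligand, was measured on all arrays with little difference. It read 37.9 ± 4.8 units in Dll1-/- cells, 30.4 ± 4.6 in Rbpj-/- cells and 45.2 ± 6.2 in WT cells. After scaling, the levels were -2.04, -2.22 and -1.97 in that order. The log2 differences were -0.06 ± 0.27 in Dll1-/- minus WT, -0.25 ± 0.29 in Rbpj-/- minus WT and -0.18 ± 0.28 in Rbpj-/- minus Dll1-/-, all within the software's error.

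Notch1, the receptor of T lineage commitment, was bright by 1 of its 2 probes. Probe A_55_P2171897 had 1036 ± 104 units in Dll1-/- cells, 866 ± 87 in Rbpj-/- cells and 1295 ± 130 in WT cells. WT was highest in raw signal, and the 75th percentiles of the whole arrays were 7.28, 7.14 and 7.47 log2 in the same order. After scaling, Notch1 levels were 2.74 in Dll1-/- cells, 2.61 in Rbpj-/- cells and 2.87 in WT cells. The differences from WT were -0.13 ± 0.20 log2 in Dll1-/- cells and -0.25 ± 0.20 in Rbpj-/- cells. The second Notch1 probe, A_55_P2047168, was not well above background, with 10.5 units in Dll1-/- cells, 8.50 in Rbpj-/- cells and 13.8 in WT cells. The 2 probes thus disagree on whether Notch1 is detected, and the level rests on the bright one.

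Notch2, the second receptor of mature T cells and the one that B cells of the marginal zone need, showed a similar picture. Probe A_52_P289213 had 464 ± 46 units in Dll1-/- cells, 361 ± 36 in Rbpj-/- cells and 560 ± 56 in WT cells. In levels these were 1.58, 1.35 and 1.66, and the differences from WT were -0.08 ± 0.20 log2 in Dll1-/- cells and -0.31 ± 0.20 in Rbpj-/- cells. Between the knockouts Notch2 was at -0.23 ± 0.20 log2. The second probe, A_55_P1982793, read 10.6 units in Dll1-/- cells, 16.1 in Rbpj-/- cells and 22.6 in WT cells and was not well above background. With that dim probe in the mean, the difference between the knockouts became 0.26 log2 and that in Dll1-/- minus WT -0.50. The B cell marker Cd79b was at -0.53 and Ms4a1 at -0.73 log2 in Rbpj-/- minus WT, whereas Cd79a was well above background in Rbpj-/- cells (level -2.04) and not in WT cells (level -3.13). The part of B cells in the Notch2 difference was not tested.

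Read together, the 5 genes measured on all arrays split by comparison. In Dll1-/- minus WT, 1 of 5 was at least 1.5-fold higher (Dll4) and 0 were 1.5-fold lower. Of all 11818 genes 4.25% were at least 1.5-fold apart, 1.95% higher and 2.3% lower. The members' median difference was -0.06 log2, against -0.03 over all genes. In Rbpj-/- minus WT, 0 of 5 were at least 1.5-fold apart, beside 11.8% of 11592 genes, with 4.86% of genes higher and 6.97% lower. All 5 were below WT, with a median of -0.31 log2, where 60.2% of all genes were below WT and the median gene was at -0.07. The sign held under each of the 11 or 12 alternatives tried. Many of these reuse the same reading, since each gene but Rbpj has 1 usable spot. In Rbpj-/- minus Dll1-/-, 2 of 5 were at least 1.5-fold lower (Dll4 and Rbpj), beside 11.6% of 11800 genes at least 1.5-fold apart and 6.35% at least 1.5-fold lower. One of these, Dll4, was at least 2-fold lower, beside 2.62% of genes. The median over the 5 genes was -0.23 log2 and that over all genes -0.03.

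**Figure D3:**
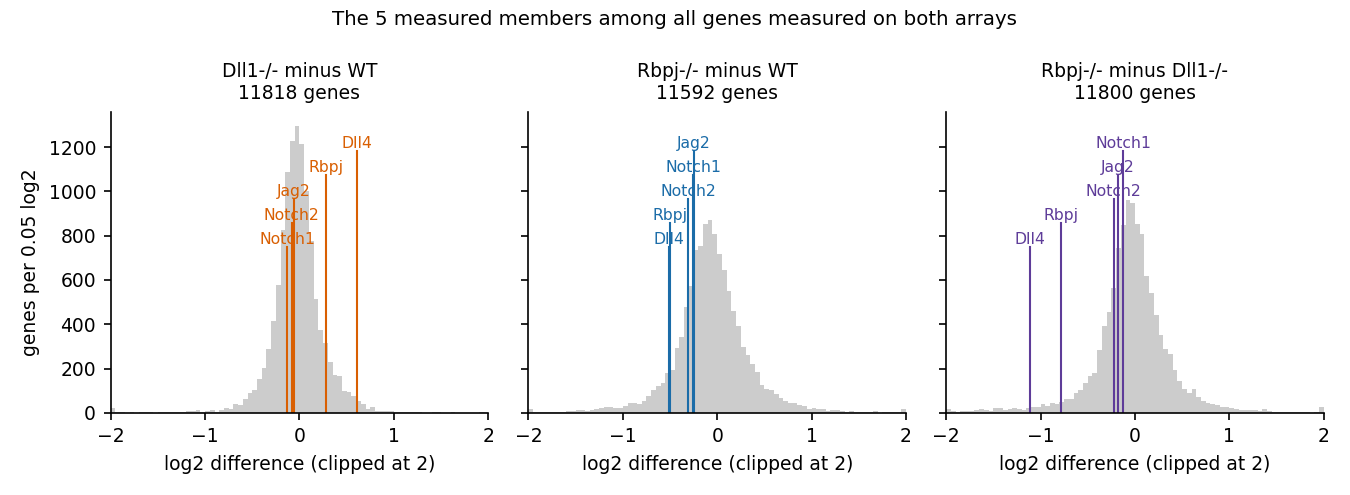
Histograms of the log2 difference of all genes measured on both arrays (vertical axis, genes per 0.05 log2), with the 5 members marked by lines. Dll4 lies in the upper flank in Dll1-/- minus WT, at 0.61, and in the lower flank in Rbpj-/- minus Dll1-/-, at -1.11, while Notch1, Notch2 and Jag2 lie within the bulk of genes.

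Scaling to spike-in spots moved every log2 difference from WT down. In Dll1-/- minus WT, Dll4 thus shrank from 0.61 to 0.40 log2 and Rbpj from 0.28 to 0.08. Notch1, Notch2 and Jag2 moved further below WT in that comparison, to -0.34, -0.29 and -0.27 log2. When arrays were scaled to the E1A spike-in spots, which are added to the labelling reaction, the median gene stood at -0.23 log2 in Dll1-/- minus WT and -0.81 in Rbpj-/- minus WT. All 5 members were then at least 1.5-fold below WT in Rbpj-/- cells, with Rbpj at -1.25, Dll4 at -1.25, Notch2 at -1.05, Notch1 at -0.99 and Jag2 at -0.99. Under that scaling 9021 of all 11592 genes were at least 1.5-fold apart, so nothing about the members is read from their count. Relative to the median gene, Rbpj was at -0.43, Dll4 at -0.43, Notch2 at -0.23, Notch1 at -0.18 and Jag2 at -0.17 log2. These values are the same under both scalings by construction, since each scaling subtracts 1 constant per array.

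**Figure D4:**
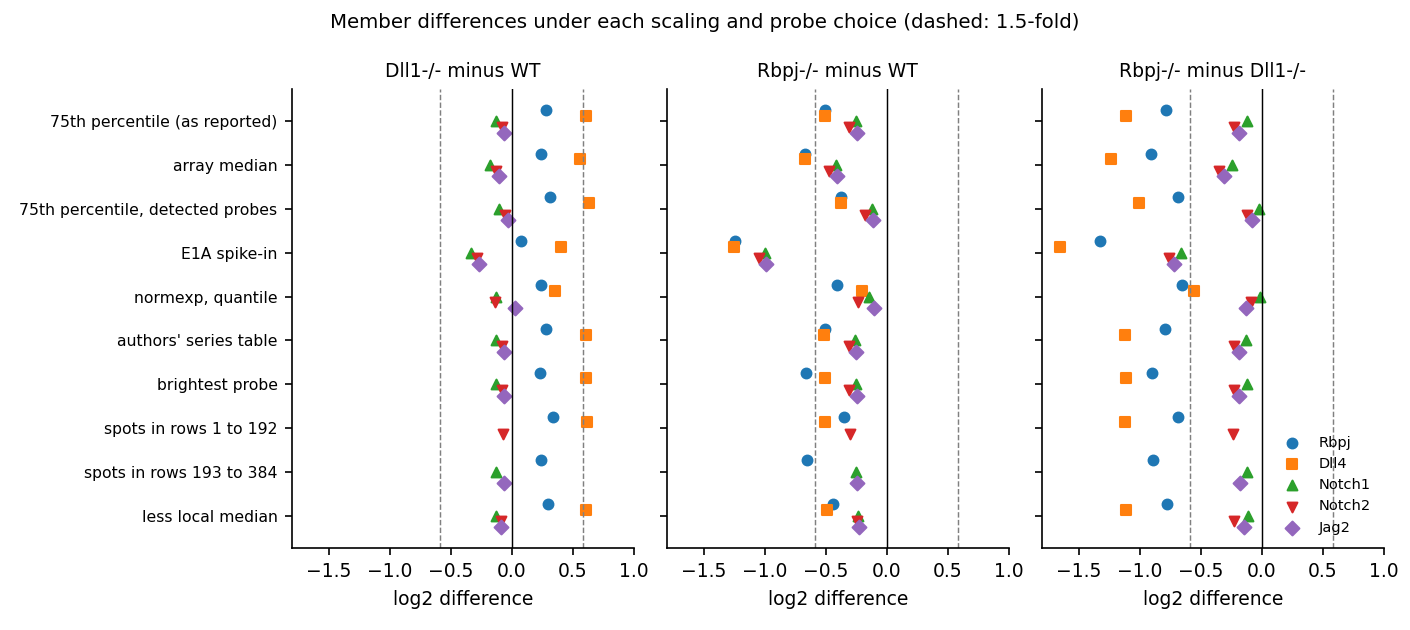
Log2 difference of Rbpj, Dll4, Notch1, Notch2 and Jag2 in the 3 comparisons (panels) under each scaling, normalization and probe choice (rows); dashed lines mark 1.5-fold. Rbpj lies between -1.25 and -0.35 in Rbpj-/- minus WT over all rows, and the spike-in row moves all 5 genes down together.

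By the naming rule, the 3 genes nearest to Rbpj in profile over the 3 arrays, among 3384 candidates of similar level, were Szrd1, Igsf9 and Zfp85. Their Euclidean distances were 0.05 log2, and Szrd1 was at 0.35 in Dll1-/- minus WT and -0.47 in Rbpj-/- minus WT. Nearest to Notch1, at 0.01 log2, were Drosha, Chtop and Unk, and Pole3, Fancl and Lpcat3 were nearest to Notch2 at distances up to 0.01 log2. With 3 points a profile is a weak measure of likeness.

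Beyond the core genes, the processing and sorting list (glycosyltransferases, proteases, gamma-secretase, ubiquitin ligases) had 21 of 24 genes measured. Its median difference was -0.08 log2 in Dll1-/- minus WT and -0.06 in Rbpj-/- minus WT. At least 1.5-fold higher than WT were 1 gene in Dll1-/- cells, the ligand-directed ubiquitin ligase gene Neurl1b at 0.66, and 2 genes in Rbpj-/- cells, Dtx4 at 0.88 and Neurl1a at 0.81. No gene of this list was 1.5-fold lower in either. Neurl1a, a mean of 2 dim probes, had levels of -2.21 in Rbpj-/- cells and -3.01 in WT cells, near the lowest usable signals there. Over all genes 1.95% were 1.5-fold higher and 2.3% lower in Dll1-/- cells, and 4.86% higher and 6.97% lower in Rbpj-/- cells. Neurl1b followed the order of Dll4, with levels of 6.20 in Dll1-/- cells, 5.09 in Rbpj-/- cells and 5.55 in WT cells.

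The list of nuclear partners of Rbpj, which also holds its paralogue Rbpjl, had all 17 genes measured. Medians were 0.03 in Dll1-/- minus WT and 0.02 in Rbpj-/- minus WT. Maml3, a coactivator of the Notch complex, was at 0.72 log2 in Rbpj-/- minus WT. Rbpjl, a paralogue of Rbpj known from pancreas, had the largest difference of this list in Rbpj-/- cells. Its probe read 2280 ± 228 units in Dll1-/- cells, 560 ± 56 in Rbpj-/- cells and 1779 ± 178 in WT cells. Rbpjl was 2.53-fold lower in Rbpj-/- than in WT cells and 3.70-fold lower in Rbpj-/- than in Dll1-/- cells, against 1.42-fold and 1.73-fold for Rbpj. Whether its probe also takes up Rbpj transcripts was not tested.

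Of 13 listed targets 6 were measured, and in Rbpj-/- cells 2 of them were at least 2-fold below WT, the Notch-regulated ubiquitin ligase gene Dtx1 at -2.59 log2 and the survival gene Bcl2 at -1.29. Of all genes 2.18% were at least 2-fold below WT in Rbpj-/- cells. In Dll1-/- minus WT none of the 6 was 1.5-fold apart, with Dtx1 at -0.01, and the target with the largest difference was Il2ra at 0.28. Hey1, a transcriptional repressor induced by Notch, read 3.13 units in Dll1-/- cells, 21.7 in Rbpj-/- cells and 5.02 in WT cells, and was well above background in Rbpj-/- cells alone. Hes1 and Nrarp, further Notch targets, were below that flag on all arrays. Hey1, Hes1 and Nrarp are named outside the naming rule. Of 8 further ligands 1 was measured, Cntn1, at 0.77 in Dll1-/- minus WT and 0.89 in Rbpj-/- minus WT.

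**Figure D5:**
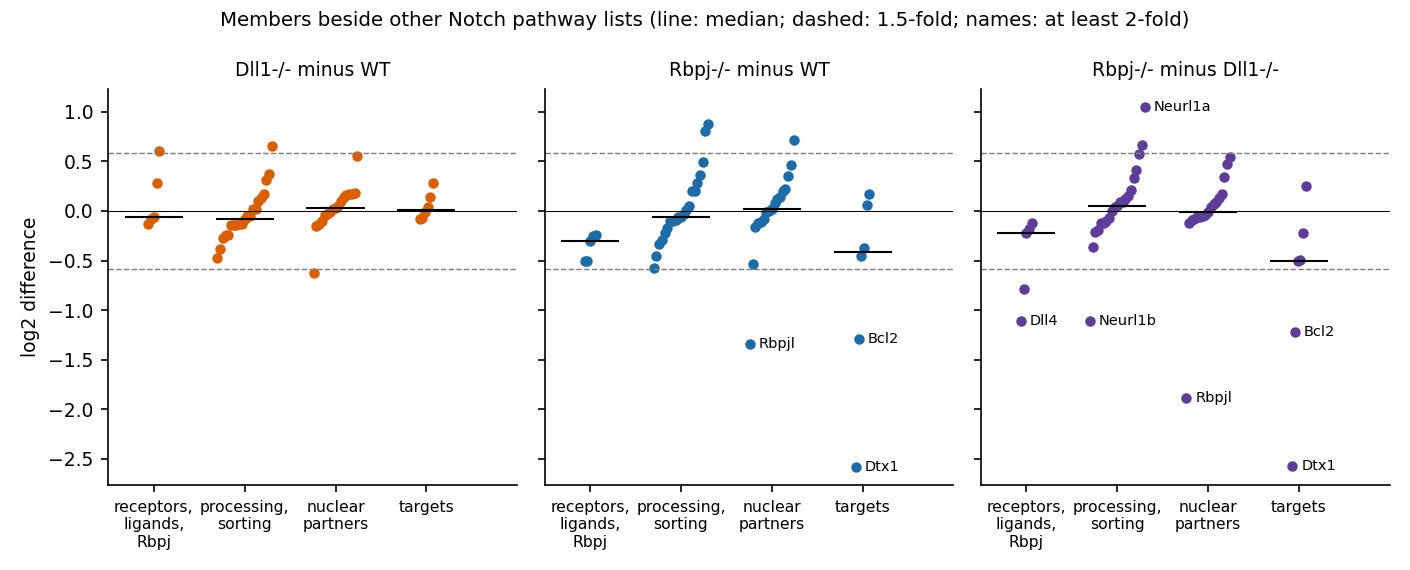
Log2 differences of the 5 measured members, 21 processing and sorting genes, 17 genes of the nuclear partner list (Rbpjl included) and 6 targets. The panels are the 3 comparisons, with medians as lines, 1.5-fold as dashed lines and names for genes at least 2-fold apart. Dtx1, Rbpjl and Bcl2 lie lowest in Rbpj-/- minus WT, below all receptors and ligands.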

How the data were processed

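The data are 3 one-colour Agilent arrays, 1 each for Dll1-/-, Rbpj-/- and WT cells, grouped by the genotype in the labels. The authors deposited scanner files whose processed signal is an intensity, background-subtracted and detrended per the file headers, made with Agilent Feature Extraction 10.7 per the submitters' processing notes. Values in the series table that the authors deposited are on a log2 scale. They equal log2 of the processed signal plus 1 constant per array for 100% of probes (tolerance 0.01), with column medians of -3.40 (Dll1-/-), -3.28 (Rbpj-/-) and -3.44 (WT). Spots flagged as outliers were left out, and log2 signals were averaged per probe. Each array's 75th percentile was then subtracted. A probe counted as well above background if most of its spots carried the flag. Probes were named by accession through a RefSeq gene table of GRCm38.p6, which named 27507 of 55678 probes. The array design is on mm9 per the file headers, so no probe coordinates are given. Gene levels average the probes that were well above background on at least 1 array. Where only 1 array of a pair gave a usable signal, the fold is an approximate bound. It is set against the higher of the dim probe's own signal and the lowest usable signal of its array. No test was run, since each group has 1 array, and their number limits the precision.

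Named genes are the 10 members, the 3 genes of nearest profile to Rbpj, Notch1 and Notch2, and, from each pathway list, up to 4 genes that were 1.5-fold or more apart, or failing that the gene that differed most. Some genes of these lists are not reported here. Members, lists and tests were chosen with earlier results of these data known. The steps were tested on simulated data. Python 3.11.15 and limma 3.58.1 were used. Normexp (offset 50) was run on the median spot and background intensity. The scanner data used here hold no column of the mean spot signal planned for it.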

Additional observations from a re-analysis of the deposited data

How the results depend on the processing

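In Rbpj-/- minus WT, Rbpj kept its sign under 12 alternatives, with log2 differences between -1.25 and -0.35, as did Dll4 under 11, between -1.25 and -0.20. Dll4 rests on 1 spot, so alternatives such as the brightest probe or no filter on dim probes return its main value of -0.51. Counts of members at least 1.5-fold apart moved more. In Dll1-/- minus WT the count of 1 became 0 with array median scaling, normexp with quantile normalization, spike-in scaling, the lower rows of the array only (which leaves out Dll4) and a 2-fold limit. In Rbpj-/- minus WT the count of 0 became 2 with array median scaling, 5 with spike-in scaling, and 1 with the brightest probe, with no filter on dim probes and with the lower rows only. In Rbpj-/- minus Dll1-/- the count of 2 became 1 with normexp, with the lower rows only and with a 2-fold limit, 3 with no filter on dim probes and 5 with spike-in scaling. In Rbpj-/- minus WT, the 1 gene with the brightest probe and with the lower rows was Rbpj, by the same probe in row 360. Its differences were -0.66 and -0.65, so these are not separate readings. Spike-in scaling moves all genes by 1 constant per array. The cause of the other changes was not tested. Over all genes, those at least 1.5-fold apart were 112, 500 and 595 with normexp and quantile normalization in the same 3 comparisons, against 502, 1371 and 1368, and 825, 9021 and 5728 with spike-in scaling. Without a filter on dim probes they were 2489, 3764 and 3969 of 20886 genes. Jag2 changed sign in Dll1-/- minus WT with normexp (0.03), and Notch2 between the knockouts without the filter (0.26). The local median was an alternative chosen after seeing the data. Naming by gene name could not be run, since the scanner data used here hold no gene name column. Probes not well above background give approximate bounds only. No paired analysis was possible because each group has 1 array.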
